A study of Mus musculus with 8 samples.

Results

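The 10 genes described here, Stab1, Stab2, Lyve1, Clec4g, Fcgr2b, Kdr, Pecam1, Cdh5, Tek and Eng, mark the endothelial cells that line the liver sinusoids. They were taken by name, with no threshold on their values, from a table of 55401 mouse gene identifiers, and all 10 were among the 17669 genes with enough counts to be tested. Polyadenylated RNA was measured in 8 liver libraries from NOD Scid Gamma (NSG) mice, a strain that lacks T, B and NK cells. Each mouse carried a subcutaneous xenograft of a human colorectal cancer line, Colo201 (described by the submitters as high in the hormone FGF19) in 4 libraries and HCT116 (described as low in FGF19) in the other 4. In each line 2 libraries were labelled male and 2 female. Every host carried a tumour, no library came from a tumour-free mouse, and the sources used here give neither the age of the mice nor the time since implantation. The titles add a number and a side: Colo201 2L and 2R and HCT116 1L and 1R were labelled male, and Colo201 4L and 4R and HCT116 3L and 3R were labelled female. What L and R stand for is not given, so the 2 libraries of a number may not be independent of each other. The p-values count each library as a unit and rest on how far these libraries vary, part of which may be technical.

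Sinusoidal endothelial cells form a fenestrated lining without a continuous basement membrane between the blood and the hepatocytes. They clear waste molecules and small immune complexes from the portal blood through scavenger, lectin and Fc receptors, and they use the VEGF, angiopoietin and BMP pathways for their upkeep and for signals to hepatocytes. Stab1, Stab2, Lyve1, Clec4g and Fcgr2b mark the sinusoidal type most closely in liver, whereas Kdr, Pecam1, Cdh5, Tek and Eng are expressed by endothelial cells in general. Some markers are shared: Stab1 and Fcgr2b are also known from macrophages, Lyve1 from lymphatic endothelium and Stab2 from the sinuses of spleen and lymph node.

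Each library held between 61347603 and 65457482 estimated counts. In 8 of 8 libraries the genes of the sex chromosomes went against the sex label. Levels are given as CPM, the count scaled to the library's total. Xist, expressed from the inactive X chromosome, lay between 239 and 374 CPM where the label was male and between 0.275 and 0.833 CPM where it was female. Of the genes examined on the Y chromosome (Uty, Ddx3y, Kdm5d and Eif2s3y), none exceeded 0.0764 CPM under the label male, and under the label female they ranged from 8.93 to 65.7 CPM. The labels are kept below as names of the groups, and each direction given for them is by label, which is the reverse of the split by these genes. No library was a copy of another.

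The 10 genes lie on 9 chromosomes of the mouse genome (GRCm38, GENCODE vM21), and Clec4g and Cdh5 share chromosome 8. Stab1 spans chr14:31139013-31168641 and Stab2 chr10:86841198-87008025, both on the minus strand. Eng spans chr2:32646595-32682669 on the plus strand. Exons of 5 members overlap a gene on the opposite strand: Stab1 overlaps Nt5dc2 by 112 bases, Stab2 overlaps Gm16268 by 141, Clec4g overlaps Gm16553 by 146, Fcgr2b overlaps Gm38204 by 155 and Eng overlaps Fpgs by 61. The libraries were made with a stranded kit, but whether strand was used in counting is not given, so a few reads of these pairs may be joined.

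RefSeq start sites (GRCm38.p6) gave a window of 300 bases, from 250 before to 50 after the gene start, for 7 of the 10 members; Lyve1, Pecam1 and Cdh5 were not among them. The windows of Stab1, Stab2 and Eng are shown because these genes passed the test between the sex labels described further on and share the letters of an ETS element, the motif of a transcription factor family known for endothelial genes. They lie at chr14:31168592-31168891 (minus strand), chr10:87007893-87008192 (minus strand) and chr2:32646345-32646644 (plus strand), are written 5′ to 3′ in the direction of transcription, and carry CAGGAA, or TTCCTG where it lies on the other strand, in capitals.
Stab1: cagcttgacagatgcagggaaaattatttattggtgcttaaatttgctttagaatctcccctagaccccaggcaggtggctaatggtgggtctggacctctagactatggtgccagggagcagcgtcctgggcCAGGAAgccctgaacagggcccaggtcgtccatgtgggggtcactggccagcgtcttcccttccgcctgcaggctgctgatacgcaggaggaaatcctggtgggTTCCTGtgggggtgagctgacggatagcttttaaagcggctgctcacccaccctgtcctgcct
Stab2: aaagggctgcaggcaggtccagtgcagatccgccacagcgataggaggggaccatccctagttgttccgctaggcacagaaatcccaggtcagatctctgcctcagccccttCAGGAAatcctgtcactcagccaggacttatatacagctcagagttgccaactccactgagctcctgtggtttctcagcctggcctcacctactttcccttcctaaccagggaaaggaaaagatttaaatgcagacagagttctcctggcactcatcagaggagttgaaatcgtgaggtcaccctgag
Eng: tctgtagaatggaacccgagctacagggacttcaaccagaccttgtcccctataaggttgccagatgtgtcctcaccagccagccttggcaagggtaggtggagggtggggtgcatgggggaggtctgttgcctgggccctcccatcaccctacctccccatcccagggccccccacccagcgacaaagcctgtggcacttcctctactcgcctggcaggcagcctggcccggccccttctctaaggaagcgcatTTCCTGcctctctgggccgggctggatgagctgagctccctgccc
Stab1 held the motif on either strand, beginning at positions -117 and -13 relative to the gene start, Stab2 at -138, and Eng at 5. CAGGAA on either strand was found in 5 of the 7 member windows (Stab1, Stab2, Clec4g, Tek and Eng) and in 30.6% of all 32851 windows of that length. The ETS letters CCGGAA were found in Kdr alone and in 14.9% of all windows, and the GATA letters AGATAA in Tek alone and in 11.2%. The 3 motifs do not overlap each other in these windows, and a match describes letters, not a bound site.

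Per length of transcript (the authors' FPKM, mean ± SD over 8 libraries), the lectin Clec4g was the most abundant member at 18.7 ± 4.56 FPKM, followed by Eng at 14.4 ± 2.94 and Fcgr2b at 7.01 ± 1.68. Stab2 at 4.98 ± 1.54, Kdr at 4.32 ± 0.959 and Cdh5 at 4.32 ± 1.10 formed the middle of the order. Stab1 at 2.95 ± 0.709, Lyve1 at 2.72 ± 0.699, Pecam1 at 2.38 ± 0.672 and Tek at 1.97 ± 0.459 were the least abundant. Some neighbours in this order kept their places in every library: Clec4g was above Eng, Eng above Fcgr2b, Stab2 above Kdr, Cdh5 above Stab1 and Pecam1 above Tek in 8 of 8 libraries. Kdr and Cdh5 could not be ordered, with Kdr higher in 5 of 8, nor could Stab1 and Lyve1, with Stab1 higher in 5 of 8. Fcgr2b was above Stab2 in 7 of 8 libraries and Lyve1 above Pecam1 in 6 of 8.

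The scavenger receptors come first. Stab1 (stabilin-1), which takes up modified lipoproteins and matrix fragments, was at 32.3, 44.0, 30.3 and 24.9 CPM in the Colo201 hosts (2L, 2R, 4L and 4R, in that order) and at 43.6, 38.1, 29.7 and 23.4 CPM in the HCT116 hosts (1L, 1R, 3L and 3R). The lines overlapped throughout, while the 4 libraries labelled male all lay above the 4 labelled female, with the nearest values 32.3 in Colo201 2L and 30.3 in Colo201 4L. Stab2 (stabilin-2), the main hyaluronan-clearing receptor of the sinusoid, was in the same order of libraries at 43.7, 56.7, 37.8 and 31.0 CPM and at 68.3, 67.8, 40.6 and 36.4 CPM. It was highest in both HCT116 libraries numbered 1, the lines overlapped, and the labels did not. Lyve1, a hyaluronan receptor of sinusoidal and lymphatic endothelium, was the least counted member, at 9.39, 8.34, 8.05 and 5.05 CPM in the Colo201 hosts and 10.8, 12.3, 8.27 and 7.25 CPM in the HCT116 hosts. Its groups by label were separated only narrowly, by 8.34 in Colo201 2R against 8.27 in HCT116 3L.

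Clec4g (LSECtin), a C-type lectin that binds glycans and T cell ligands, was at 62.2, 62.9, 50.5 and 31.8 CPM in the Colo201 hosts and at 58.0, 59.2, 39.6 and 38.4 CPM in the HCT116 hosts. The 4 libraries labelled male lay within a narrow band of 58.0 to 62.9 CPM, above a wider one of 31.8 to 50.5. Fcgr2b, the inhibitory Fc gamma receptor through which the sinusoid removes small immune complexes, was at 48.0, 56.9, 34.7 and 29.7 CPM and at 57.7, 43.2, 35.1 and 50.3 CPM in the same order. It was one of the members whose groups overlapped by label as well as by line, because HCT116 3R, labelled female, reached 50.3 CPM.

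Among the growth factor receptors, Kdr (VEGF receptor 2) was at 38.5, 52.6, 37.8 and 31.1 CPM in the Colo201 hosts and 56.3, 51.6, 38.9 and 35.1 CPM in the HCT116 hosts. Its labels overlapped by a small margin, since HCT116 3L at 38.9 lay above Colo201 2L at 38.5. Tek (Tie2), the angiopoietin receptor, was at 10.2, 12.3, 9.89 and 6.75 CPM and at 11.5, 13.8, 9.12 and 7.82 CPM. Its labels did not overlap and its lines did. Eng (endoglin), the co-receptor for BMP9 and BMP10, was at 75.6, 80.5, 63.2 and 52.1 CPM and at 77.6, 64.3, 51.6 and 47.2 CPM. HCT116 1R at 64.3 and Colo201 4L at 63.2 nearly met, with the labels on either side.

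The junction proteins come last. Pecam1 (CD31), an adhesion molecule between endothelial cells and leukocytes, was at 16.4, 23.8, 14.9 and 11.6 CPM in the Colo201 hosts and 19.5, 20.2, 12.8 and 11.1 CPM in the HCT116 hosts. Cdh5 (VE-cadherin), the cadherin of endothelial adherens junctions, was at 22.1, 23.4, 19.2 and 14.1 CPM and at 24.7, 26.1, 15.8 and 13.4 CPM. Both were lowest in HCT116 3R and neither overlapped between the labels. In all, 8 of the 10 members, all but Fcgr2b and Kdr, had every library labelled male above every library labelled female, an arrangement found in 4.69% of the genes tested (the reverse was found in 4.71%). No member had lines that did not overlap, against 5.55% of the genes tested with the Colo201 hosts above and 6.40% with them below.

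**Figure D1:**
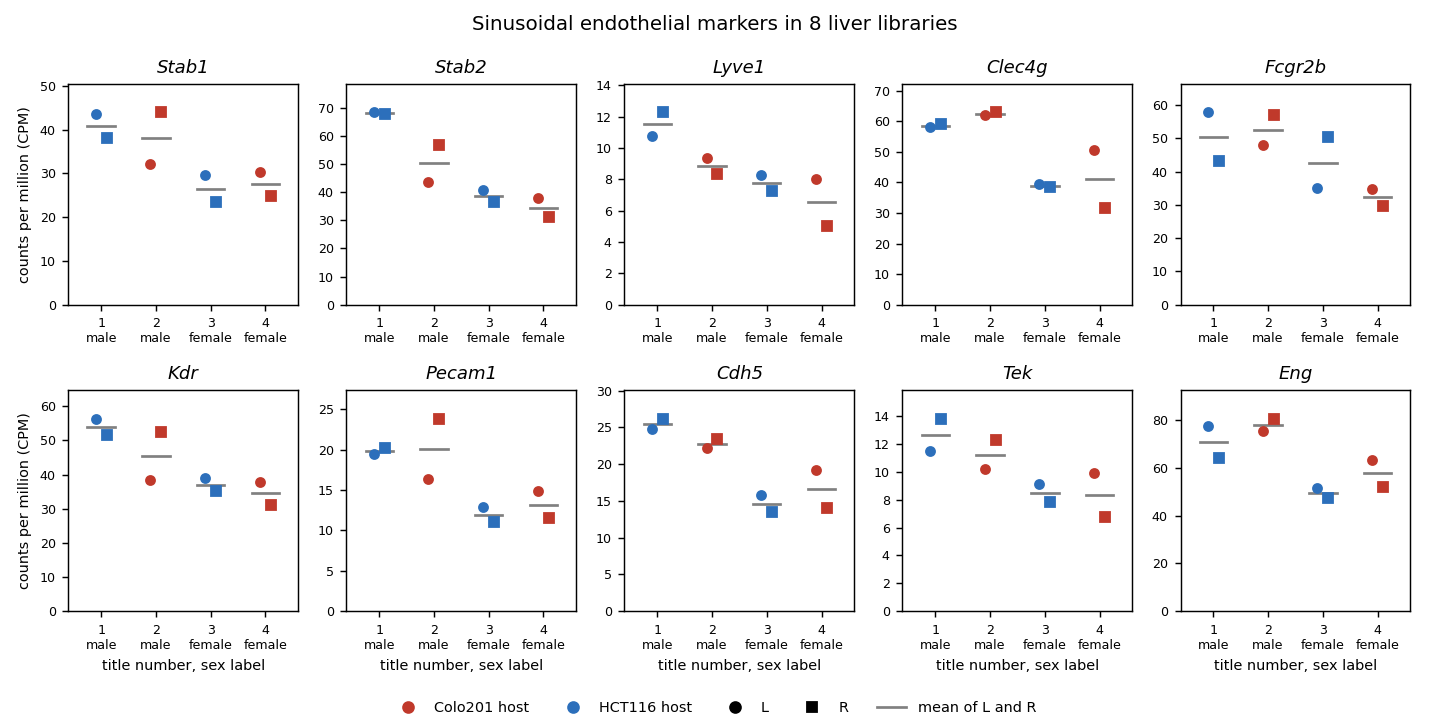
CPM of each of the 10 markers (vertical axis, from 0) by title number and sex label (horizontal axis), with circles for L, squares for R, red for Colo201 hosts, blue for HCT116 hosts and a grey bar for the mean of L and R. Title numbers 1 and 2 have the higher means and numbers 3 and 4 the lower ones in 10 of 10 markers, and red and blue points interleave.

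The comparison the series was made for asked whether the livers of hosts of an FGF19-high tumour differ from those of hosts of an FGF19-low tumour. None of the 10 markers differed between the lines at an adjusted p under 0.05 (edgeR quasi-likelihood test with sex label as covariate, Benjamini-Hochberg over all genes), whereas 845 genes, 4.78% of those tested, did, 2.48% higher and 2.30% lower in the Colo201 hosts. At an unadjusted p under 0.05 the count was 1 of 10, against 21.7% of all genes, and DESeq2 also called 0. Of the markers 5 had a log2 fold change above 0 and 5 below, with a median of -0.03, beside 0.002 over all genes tested. The markers' separate 95% intervals ran from -0.65 to 0.44 between their outermost ends. Each holds for its own gene and not for the 10 together, and each counts every library as a unit.

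Of the members, Stab2 came nearest to a difference: it averaged 42.3 ± 10.9 CPM in the Colo201 hosts and 53.3 ± 17.2 CPM in the HCT116 hosts (SD, n = 4 each), or -0.27 ± 0.11 on the log2 scale (fold change with SE; 95% interval -0.52 to -0.03; edgeR adjusted p = 0.184). Eng pointed the other way, at 67.9 ± 12.8 CPM against 60.2 ± 13.7, a log2 fold change of 0.21 ± 0.10 (95% interval -0.02 to 0.44; adjusted p = 0.261). Lyve1 had -0.28 ± 0.16 (adjusted p = 0.366). The other scavenging genes were spread around 0, with 0.01 ± 0.12 for Stab1, 0.12 ± 0.14 for Clec4g and -0.15 ± 0.17 for Fcgr2b. So were Kdr at -0.15 ± 0.11, Tek at -0.07 ± 0.14, Pecam1 at 0.11 ± 0.13 and Cdh5 at 0.05 ± 0.13, with adjusted p from 0.480 to 0.874 among these 4.

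The same held inside each sex label, where each comparison sets the libraries of 1 title number against those of 1 other. Among libraries labelled male the difference between the lines ran from -0.41 (Stab2) to 0.18 (Eng) with a median of -0.09, and among libraries labelled female from -0.39 (Fcgr2b) to 0.24 (Eng) with a median of 0.04. No member was called in either (edgeR), beside 0.232% of all genes under the label male (0.102% higher and 0.130% lower) and 0.492% under the label female (0.260% higher and 0.232% lower). At an unadjusted p under 0.05 there was 1 member in the first, against 13.1% of all genes, and 0 in the second, against 14.1%. The test of whether the line difference depends on the label called 0 members and 0.0283% of all genes (0.0170% higher and 0.0113% lower), and at an unadjusted p under 0.05 it called 0 members and 4.10% of all genes. It ranged from -0.49 ± 0.32 (Fcgr2b) to 0.33 ± 0.24 (Cdh5), so its intervals are wide.

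Between the sex labels, the other labelled factor, the markers ran in the same direction, although the libraries overlapped for Fcgr2b and Kdr. All 10 had a higher fitted level in the libraries labelled male, by 0.46 to 0.68 on the log2 scale, and 5 of 10 passed (Stab2, Pecam1, Cdh5, Eng and Stab1), beside 4.02% of all genes called, 1.96% higher and 2.06% lower. All 10 had an unadjusted p under 0.05, against 18.2% of all genes. The median of the members was 0.52, beside -0.001 over all genes tested. Because the tissue was measured in bulk, fewer endothelial cells and less of each RNA per cell cannot be told apart.

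The largest difference among the markers was that of Stab2, which rose from 36.5 ± 4.03 CPM in the libraries labelled female to 59.1 ± 11.6 in those labelled male (SD, n = 4 each), 1.60-fold or 0.68 ± 0.11 on the log2 scale (edgeR adjusted p = 0.0118). Pecam1 followed, at 12.6 ± 1.68 against 19.97 ± 3.05 CPM, 1.58-fold (0.66 ± 0.13, adjusted p = 0.0274). Cdh5 was at 15.6 ± 2.60 against 24.1 ± 1.72 CPM, 1.54-fold (0.62 ± 0.13, adjusted p = 0.0327). Stab1 was at 27.1 ± 3.44 against 39.5 ± 5.50 CPM, 1.45-fold (0.54 ± 0.12, adjusted p = 0.0473), and Eng at 53.5 ± 6.80 against 74.5 ± 7.09 CPM, 1.39-fold (0.48 ± 0.10, adjusted p = 0.0351). By role these 5 are scavenger receptors, junction proteins and a co-receptor, and no difference between roles was tested.

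The 5 that did not pass had differences of like size with a larger error or a p just over the threshold. Clec4g was at 40.1 ± 7.75 CPM in the libraries labelled female and 60.6 ± 2.35 in those labelled male, 0.59 ± 0.14 on the log2 scale (edgeR adjusted p = 0.0520), and Kdr at 35.7 ± 3.45 and 49.8 ± 7.75 CPM, 0.47 ± 0.11 (adjusted p = 0.0522). Tek had 0.50 ± 0.14 (adjusted p = 0.0989), Lyve1 0.50 ± 0.16 (adjusted p = 0.139) and Fcgr2b 0.46 ± 0.17 (adjusted p = 0.197). Which side of the threshold a marker fell on therefore rests on small margins, and no difference between one marker and another was tested. Leaving out Colo201 2R or 4R or HCT116 1L, 1R, 3L or 3R, 1 at a time, left 1 member past the threshold, Stab2. Leaving out Colo201 2L left 4 and leaving out Colo201 4L gave 9. With the libraries of a title number summed, which leaves 4 samples, 0 members passed (141 genes did).

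**Figure D2:**
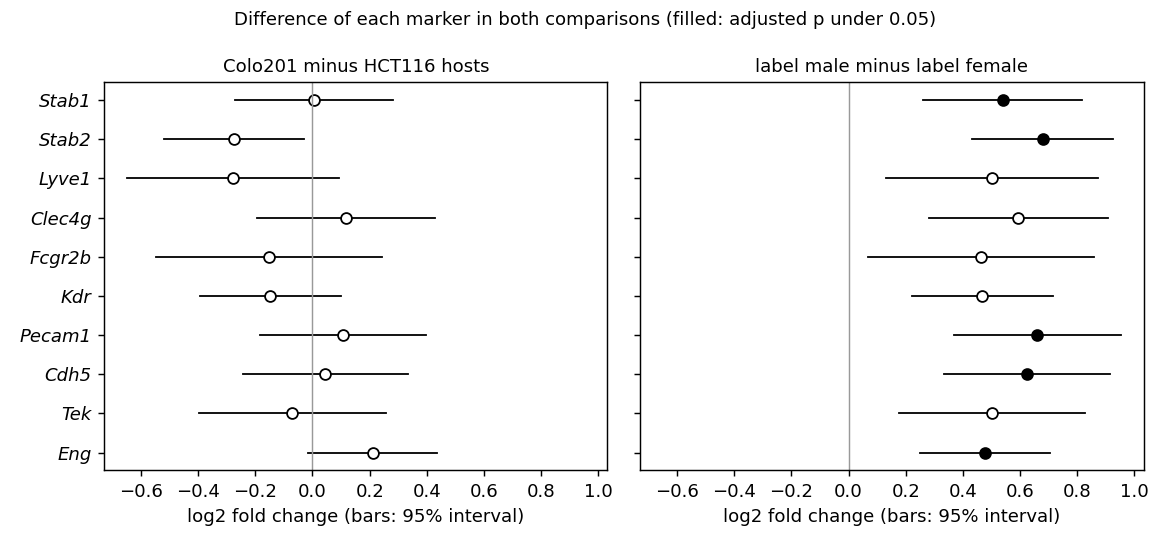
Log2 fold change of each marker with its 95% interval (horizontal axis), between the lines on the left and between the sex labels on the right, filled where the adjusted p was under 0.05. On the left the markers scatter between -0.28 and 0.21 with none filled, and on the right all 10 lie between 0.46 and 0.68 with 5 filled.

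The markers moved together from library to library. Their summed level was 358, 421, 306 and 238 CPM in the Colo201 hosts and 428, 397, 282 and 270 CPM in the HCT116 hosts, in the order of libraries used above. Every library labelled male therefore held more than every library labelled female, and the lines overlapped. The lowest value of a member was found in Colo201 4R for 6 of them and in HCT116 3R for the other 4. The highest was in Colo201 2R for 4, in HCT116 1L for 3 and in HCT116 1R for 3. The 2 libraries of a title number also differed: the gap between L and R had a median over the members of 0.15, 0.26, 0.20 and 0.32 on the log2 scale for numbers 1, 2, 3 and 4, with the widest gap, 0.67, for Lyve1 and Clec4g in number 4.

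Across the 45 pairs of markers, Pearson's r of log2 CPM over the 8 libraries ran from 0.54 to 0.98 with a median of 0.87, and 28 pairs were above 0.8. The 8 libraries share the split by label, which enters every r. Stab2 and Kdr were the most alike at 0.98 and Stab1 with Pecam1 reached 0.97. Fcgr2b followed the others least, with a highest r of 0.70. After the mean of the 10 markers was subtracted in each library, the SD over libraries fell from between 0.30 and 0.43 to between 0.10 and 0.26 on the log2 scale. Each marker is part of that mean and shares the split by label, so part of the fall is built in. No other set of genes was paired or treated in this way for comparison. The smallest remainders were those of Tek, Kdr and Stab1 and the largest was that of Fcgr2b. In HCT116 3R, Fcgr2b stood 0.53 further above the mean of the markers than it did on average over the 8 libraries.

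Relative to that mean, Eng was 0.26 higher and Stab2 and Lyve1 were 0.23 and 0.25 lower in the Colo201 hosts, on the log2 scale. These are values without a test. As shares of the summed CPM of the markers, Stab1 kept within 8.66 to 10.5% across libraries, while Fcgr2b ranged from 10.9 to 18.6% and Eng from 16.2 to 21.9%.

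**Figure D3:**
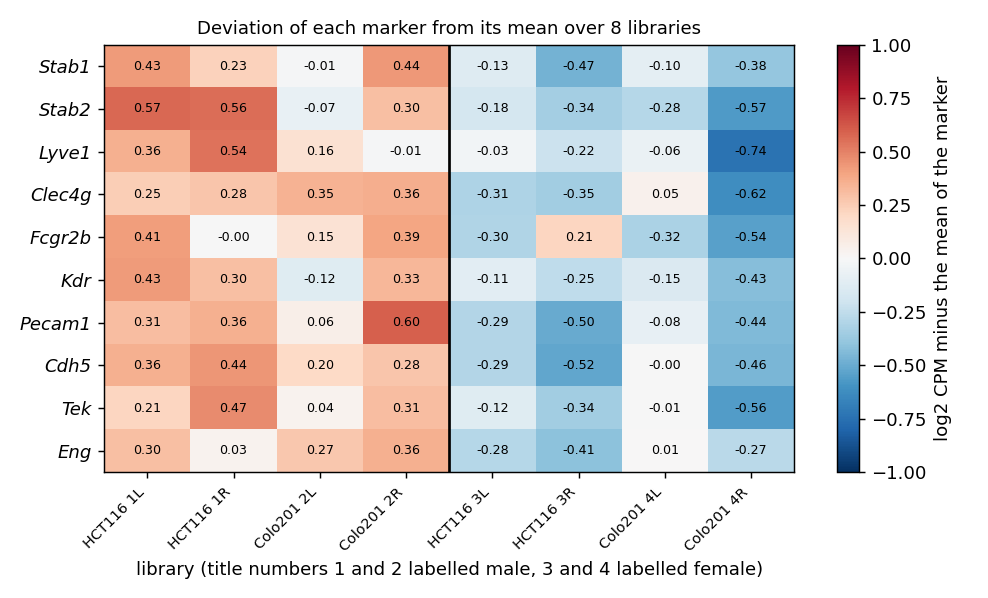
Log2 CPM of each marker (rows) in each library (columns) minus the marker's mean over the 8 libraries, with red above and blue below and a line between the libraries labelled male and those labelled female. Colo201 4R is below 0 in every row, down to -0.74 for Lyve1, and Fcgr2b in HCT116 3R, at 0.21, is the clearest exception on its side of the line.

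The 8 tested genes outside the list whose log2 CPM followed the mean z score of the markers most closely were Cd300lg, Shmt1, Oit3, Amigo2, Patz1, Plxnd1, Trim24 and Nfyc, with Pearson's r from 0.97 to 0.99 over 8 libraries. Of 11511 candidate genes 1.72% had an r above 0.9. Cd300lg, known from endothelium, was at 15.2, 18.5, 13.7 and 9.75 CPM in the Colo201 hosts and 19.2, 18.0, 11.4 and 10.5 CPM in the HCT116 hosts. Shmt1, a hydroxymethyltransferase of folate metabolism that hepatocytes express, had an r of 0.98 as well, at 171 to 285 CPM.

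The other genes of the markers' pathways were read from lists. The calls in each list stand beside shares over all genes tested of 4.78% between the lines and 4.02% between the labels. Of 13 tested genes of the VEGF and angiopoietin pathway, 0 differed between the lines and 1, Ptprb, was called higher in the libraries labelled male. Ptprb, the phosphatase that holds Tek inactive, was at 35.5 ± 3.47 CPM in the libraries labelled female and 49.0 ± 7.33 in those labelled male (0.45 ± 0.09 on the log2 scale, edgeR adjusted p = 0.0348). Flt4, another VEGF receptor of the sinusoid, had 0.63 ± 0.15 between the labels (adjusted p = 0.0564) and Flt1, the decoy-like receptor, 0.54 ± 0.21 (adjusted p = 0.207). Tie1, the co-receptor of Tek, had 0.38 ± 0.10 (adjusted p = 0.0804). Their median between the labels was 0.38. Among the ligands, Vegfa, made mainly by hepatocytes, was lower in each Colo201 host (53.8 to 111 CPM) than in each HCT116 host (120 to 145 CPM), a log2 fold change of -0.71 ± 0.21 that did not pass (adjusted p = 0.0989). That arrangement, with the Colo201 hosts below, was found in 6.40% of the genes tested. The ligand Vegfc had the reverse arrangement, found in 5.55% of the genes tested. It was at 3.59 to 4.72 CPM in the Colo201 hosts and 2.67 to 3.41 CPM in the HCT116 hosts, and was not called. Vegfb and Vegfd overlapped between the lines, with higher means in the Colo201 hosts (34.6 against 29.3 CPM and 1.26 against 0.991 CPM). Angpt1 was at no more than 0.948 CPM and Angpt2 at no more than 1.02 CPM in any library.

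Around Eng, 19 genes of the BMP and TGF-beta receptor pathway were tested. Between the lines 1 of 19 was called, beside 4.78% of all genes tested. It was Id1, a transcriptional inhibitor that BMP signals induce, higher in the Colo201 hosts. Id1 was at 26.2, 56.2, 29.6 and 31.7 CPM in the Colo201 hosts and at 17.1, 26.6, 13.4 and 13.6 CPM in the HCT116 hosts (1.07 ± 0.22 on the log2 scale, edgeR adjusted p = 0.0336), with HCT116 1R inside the range of the Colo201 hosts. Smad6, an inhibitor of the same signal, had 0.46 ± 0.12 (adjusted p = 0.0661). Tgfbr1, a TGF-beta receptor, had -0.90 ± 0.25 over all libraries (adjusted p = 0.0814), but among the libraries labelled male alone it was called lower in the Colo201 hosts, at 9.95 and 8.59 against 28.5 and 26.3 CPM (-1.52 ± 0.19, adjusted p = 0.0396). That comparison rests on 1 title number of each line and called 0.232% of all genes. Among the libraries labelled female Tgfbr1 had -0.28 ± 0.19 (adjusted p = 0.547), and the test of the difference between the labels did not pass (adjusted p = 0.777). Acvrl1 (ALK1), the receptor that Eng assists, was at 2.92, 3.76, 2.30 and 2.04 CPM and at 2.79, 3.52, 2.15 and 1.08 CPM, without overlap between the labels (0.79 ± 0.24, adjusted p = 0.118). Such a split, with the label male above, was found in 4.69% of the genes tested. The ligands Gdf2 (BMP9) and Bmp10 had 0.40 ± 0.12 and -0.04 ± 0.25 between the labels and passed in neither comparison. The 1 gene of this list called between the labels was Tgfb1, a cytokine of many cell types, 0.73 ± 0.16 higher in the libraries labelled male (adjusted p = 0.0443), and the median of the list was -0.01.

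Beside the junction proteins Pecam1 and Cdh5, 12 junction partners held 0 calls between the lines and 1 between the labels, Jam2, an adhesion molecule of tight junctions (0.64 ± 0.14, edgeR adjusted p = 0.0454). Esam, Icam2 and Cldn5 had 0.47 ± 0.12, 0.69 ± 0.20 and 0.22 ± 0.12 between the labels, none of them called. The median of that list was 0.11, against 0.52 for the 10 markers. The list was mixed, with 7 of 12 above 0, so its median does not stand for Jam2, Esam and Icam2. Its 2 most counted genes, Ctnnb1 and F11r, averaged 171 and 107 CPM in the libraries labelled male and 190 and 119 CPM in those labelled female.

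Other genes of the same cell type had a median close to that of the markers. Of 16 other sinusoidal endothelial genes, 0 differed between the lines and 2 rose in the libraries labelled male, beside 1.96% of all genes. Between the labels 15 had a log2 fold change above 0, with a median of 0.53. The genes that rose were Mrc1, the mannose receptor (24.9 ± 3.87 against 35.0 ± 5.61 CPM; 0.49 ± 0.09, edgeR adjusted p = 0.0182), and Ehd3, an endocytic trafficking protein (39.4 ± 4.88 against 56.9 ± 4.22 CPM; 0.53 ± 0.11, adjusted p = 0.0321). Oit3, Gpr182 and Dnase1l3 had 0.59 ± 0.14, 0.57 ± 0.14 and 0.51 ± 0.14, with adjusted p from 0.0601 to 0.0886. Of 13 scavenger and lectin receptors, which share Mrc1 with that list, 0 differed between the lines and 2 rose between the labels, Mrc1 and Cd93 (0.60 ± 0.13, adjusted p = 0.0431). Their median between the labels was 0.49, with 11 of 13 above 0. Cd36, a fatty acid and lipoprotein receptor of the same list, had 0.81 ± 0.22 (adjusted p = 0.0881). Of 6 genes of the Fc receptor list, B2m among them, 0 passed in either comparison. Between the labels 5 of these 6 had a log2 fold change above 0, with a median of 0.53 over the 6. B2m went the other way, at 2009 ± 190 CPM in the libraries labelled female and 1693 ± 110 in those labelled male. An unadjusted p under 0.05 (edgeR), whatever the direction, was found for 6 of 6, beside 18.2% of all genes tested. Of 15 endothelial transcription factors 0 passed in either, with medians of 0.07 between the lines and 0.34 between the labels.

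Genes that mark places along the vessel gave no calls in the 7 pericentral and the 9 periportal genes, with medians between the lines of 0.44 and -0.17. Between the labels their medians were 0.43 and 0.15, with 7 of 7 and 6 of 9 above 0. The pericentral gene Thbd (thrombomodulin) was nearest to the threshold, at 1.41 to 2.35 CPM in the Colo201 hosts and 0.723 to 1.45 CPM in the HCT116 hosts (1.02 ± 0.25, edgeR adjusted p = 0.0580). Calls between the lines did occur among the 14 tested genes of capillary and large vessel endothelium. Of these, 2 were called higher and 2 lower, beside 2.48% and 2.30% of all genes. Vwf, the clotting factor stored in endothelial granules, and Plvap, a diaphragm protein of fenestrae, were higher in the Colo201 hosts (0.82 ± 0.19, adjusted p = 0.0477, and 0.52 ± 0.11, adjusted p = 0.0370). Ly6a and the adhesion molecule Vcam1 were lower there (-0.76 ± 0.15, adjusted p = 0.0329, and -0.83 ± 0.15, adjusted p = 0.0240). Between the labels Vcam1 was higher (0.97 ± 0.15, adjusted p = 0.0101) and Ly6a lower (-1.86 ± 0.16, adjusted p = 0.000483) in the libraries labelled male. Of 5 lymphatic genes, Reln rose (0.89 ± 0.14, adjusted p = 0.0184) and Prox1 fell (-0.53 ± 0.12, adjusted p = 0.0437) in the Colo201 hosts. Both are known from other liver cells too, Reln from stellate cells and Prox1 from hepatocytes, and Pdpn, a defining lymphatic gene, was at no more than 0.407 CPM.

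**Figure D4:**
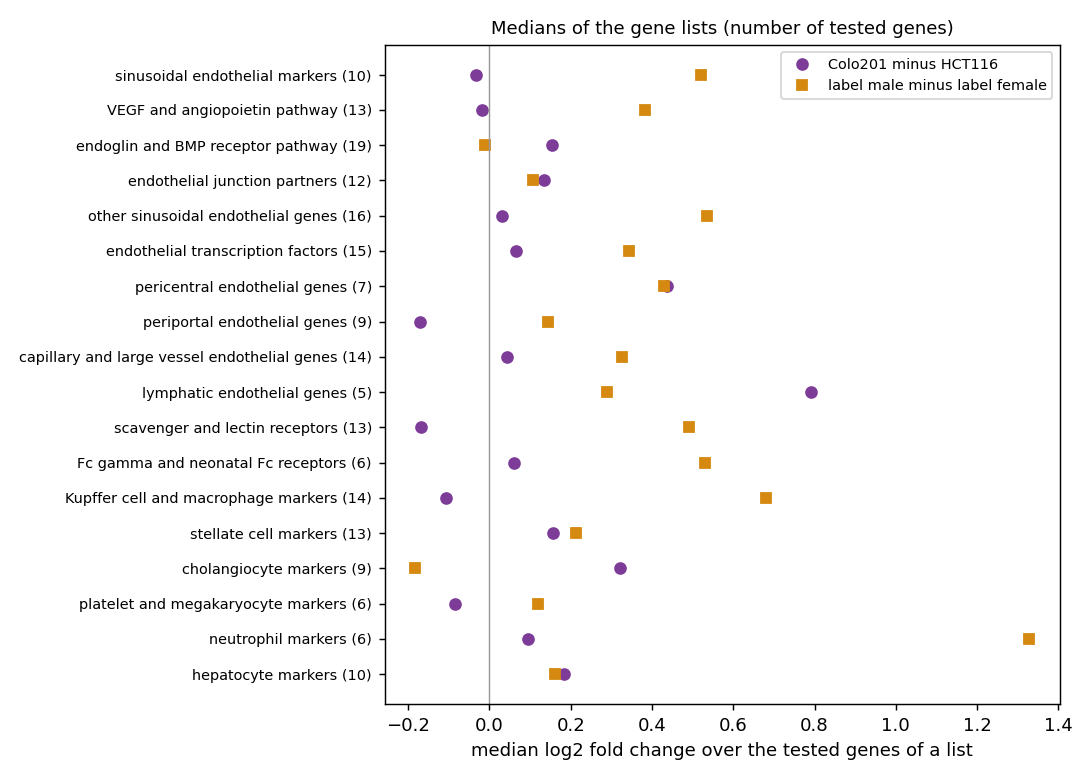
Median log2 fold change over the tested genes of each list (horizontal axis), with purple circles for Colo201 minus HCT116 hosts and orange squares for label male minus label female; the number of tested genes stands in parentheses. The 10 markers lie at -0.03 and 0.52, the other sinusoidal genes at 0.03 and 0.53 and the Kupffer cell genes at -0.11 and 0.68.

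Markers of other liver cells differed in how they ran between the labels, where 4.02% of all genes were called. The 14 Kupffer cell and macrophage genes all had a log2 fold change above 0, with a median of 0.68, and 2 were called, Cd68 (0.77 ± 0.17, edgeR adjusted p = 0.0398) and C1qa (0.66 ± 0.15, adjusted p = 0.0439). Their summed level spanned 741 to 880 CPM under the label male and 436 to 668 CPM under the label female, without overlap, and the Kupffer cell lectin Clec4f was at 49.3 CPM in Colo201 4R against 90.0 to 148 CPM elsewhere. The 10 hepatocyte genes summed to 165100 to 191647 CPM under the label male and to 128222 to 156939 CPM under the label female. Most of that sum is Alb, and the other 9 genes summed to 57867 to 71428 CPM and to 53161 to 69159 CPM, with overlap. The median of the hepatocyte genes was 0.16, with 7 of 10 above 0 and 2 called, Alb and Ahsg. Alb alone took 10.7 to 12.0% and 7.51 to 9.41% of all counts (0.43 ± 0.07, adjusted p = 0.0123). The summed stellate cell genes overlapped between the labels, with a median of 0.21 and 1 of 13 called, Ecm1 (0.48 ± 0.10, adjusted p = 0.0318). Cholangiocyte genes had a median of -0.18 with 4 of 9 above 0, and platelet genes 0.12 with 3 of 6 above 0, none of them called. Neutrophil genes had a median of 1.33 with 0 of 6 called, at a summed level of no more than 6.86 CPM. Among lymphocyte genes, Ms4a1 and Cd3e were at 0 counts in every library, Cd79a was above 0 only in HCT116 1R (0.126 CPM), and Cd79b was at 0.308 to 0.701 CPM throughout. The part of other cell types, or of their share of the RNA, in the markers' difference was not tested.

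Colo201 4R, the library with the lowest markers, also stood apart in Krt19, a keratin of bile duct cells, at 25.9 CPM against 0.481 to 2.23 CPM elsewhere. Without it, the median difference of the markers between the labels was 0.45 in place of 0.52 and 1 member passed. Between the lines, Kupffer cell genes had a median of -0.11 with 1 called, the iron exporter Slc40a1 (-0.44 ± 0.07, edgeR adjusted p = 0.0200). Hepatocyte genes had 3 of 10 called higher in the Colo201 hosts (Apoa1, Trf and Ahsg), with log2 fold changes from -0.56 to 0.51. Of the 10 markers 0 were called, beside 4.78% of all genes. Cholangiocyte genes had 1 of 9 called, higher in the Colo201 hosts. Krt23 of that list was at 6.98 to 32.2 CPM in the Colo201 hosts and 0.330 to 2.23 CPM in the HCT116 hosts. Stellate cell genes had 1 of 13 called (Reln, named above), and platelet and neutrophil genes had 0 of 6 each.

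**Figure D5:**
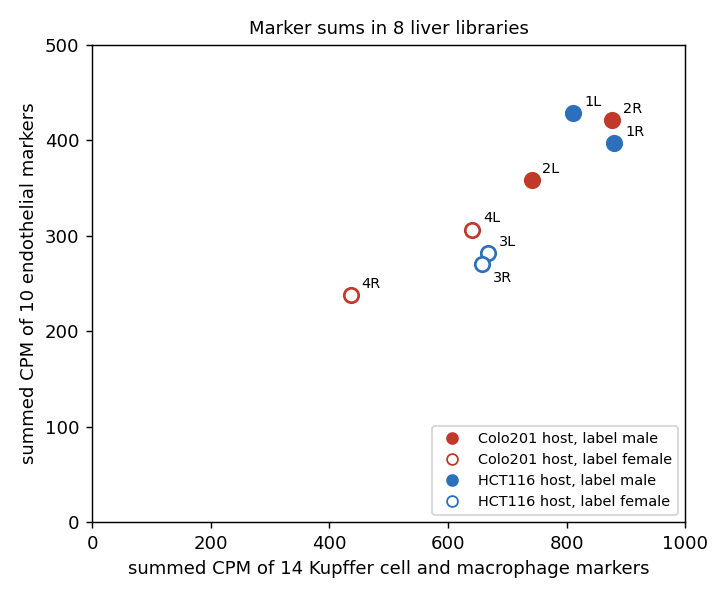
Summed CPM of the 10 markers (vertical axis, from 0) against summed CPM of the 14 Kupffer cell and macrophage markers (horizontal axis, from 0), 1 point per library, red for Colo201 and blue for HCT116 hosts, filled where the label is male. The filled points lie at 358 or more on the vertical and 741 or more on the horizontal axis, and the open point at the lower left is Colo201 4R at 238 and 436.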

How the data were processed

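The data are 8 libraries of polyadenylated liver RNA. The submitters' processing notes name HISAT2, StringTie and the build GRCm38 (mm10); the versions, the annotation and the strand setting are not stated there. The deposited estimated counts are whole numbers per gene whose derivation is not stated: 43.9 to 45.0% of the values from 1 to 16 were multiples of 4. The authors' FPKM table gave only the order of levels per length and some alternatives. CPM is a count scaled to its library's total, 61347603 to 65457482 counts. Symbols came from GENCODE vM21 for 55141 of 55401 identifiers; the 260 others held 0.0216 to 0.0343% of the counts and stayed in the totals.

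Counts were scaled by TMM, filtered with filterByExpr (17669 genes) and tested two-sided with edgeR 4.0.16 in R 4.3.3 (glmQLFit, glmQLFTest; adjusted p under 0.05). Sex label was the covariate for lines and line the covariate for sex labels, each with 5 residual degrees of freedom. Comparisons within a label and the interaction (label female minus label male) used 1 mean per title number. Alternatives used limma 3.58.1 and DESeq2 1.42.0. Methods were tested on simulated data. The smallest chi-square per gene between libraries was 53.1 over 28 pairs, so none was a duplicate.

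The markers and the 18 lists beside them were chosen with earlier results of these data known. Besides the markers, the text names genes of the lists that pass and, from some lists, those with the smallest p between the lines. It also names partners of the markers, the 8 genes most like them in pattern, X- and Y-linked genes and Alb. Genes near the threshold between the labels, the lymphocyte genes and Clec4f and Krt19 were named after their values were seen. No paired analysis was possible because the lines share no title number.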

Additional observations from a re-analysis of the deposited data

Results flagged for a closer look

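Of 44 values examined in groups of 4 libraries, 1 had a library far from the others, and chance alone flags about 1 in 20 groups. It was the mean log2 CPM of the 10 markers in the libraries labelled male. Colo201 2L, at 4.86, lay below the other 3, and its gap to the nearest of them was 0.842 of the range of the group, beyond Dixon's critical value at the 95% level for 4 samples. Without Colo201 2L, 4 members in place of 5 passed between the labels, and their median was 0.56 on the log2 scale.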

How the results depend on the processing

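Between the lines, 0 of the 10 markers passed in each of 20 alternatives, with medians from -0.12 to 0.04. Between the labels all 10 stayed higher in the libraries labelled male in all 20, with medians from 0.44 to 0.66. The count of 5 moved to 8 with DESeq2, 3 with no covariate and 0 with the libraries of a title number summed (not a paired fit; the cause was not tested beyond the smaller number of samples), and from 1 to 9 on leaving out a library. The sign between the lines turned for Stab1 with DESeq2 size factors (-0.001805), library totals (-0.02182), a minimum of 1 CPM (-0.009857), DESeq2 (-0.001933), limma voom (-0.001219), FPKM with a pseudocount of 1 (-0.02838) or 0.1 (-0.03435), no covariate (-0.007584) and counts divided by 4 (-0.002783), and for Cdh5 with FPKM (-0.005404 and -0.001363); the cause was not tested, and none of these passed. On leaving out a library, the log2 fold change between the lines ran from -0.07805 to 0.08295 for Stab1, -0.09394 to 0.1033 for Cdh5, -0.03478 to 0.2424 for Clec4g, -0.2828 to 0.02759 for Fcgr2b and -0.2116 to 0.02143 for Tek. Over all genes the count of calls ran from 3 to 1993 between the lines (845 as reported) and from 141 to 1585 between the labels (710). No paired analysis was possible because the lines share no title number. The lowest value of a member was 312 counts (Lyve1 in Colo201 4R), so depth limits the ligands at under 1 CPM more than the markers.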
